A study of Mus musculus with 4 samples.

Results

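The δ-cells of the pancreatic islet, which release somatostatin, were compared between islets treated with IFN-γ and untreated islets. A barcode was kept if it had 200 to 4000 detected genes and at most 12% of its UMIs (unique molecular identifiers, each counting 1 captured mRNA) from mitochondrially encoded genes. A kept cell was taken as a δ-cell when *Sst* made up at least 2% of its UMIs and was above *Ppy*, *Ins1* and *Ins2* together were under 2%, and *Gcg* was under 1%. By this rule 231 cells were chosen of the 7471 kept in the 4 libraries: 172 of 2122 kept cells in the IFN-γ library and 59 of 1521 in the untreated library. Islets of adult male C57BL/6 mice (C57BL6/J in the study's methods) were pooled, split into 4 samples, left without cytokine or exposed as intact islets to IL-1β, IFN-γ or both for 6 h, then dissociated and loaded for droplet single-cell RNA-seq. All 4 samples share this pool, and the labels give no culture time for the untreated islets. Since whole islets were treated, the δ-cells were exposed alongside all other islet cells. Each condition is 1 library, so no test between conditions could be made, and every interval given is a 95% interval for counting error only.

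Somatostatin from δ-cells acts on the neighboring β- and α-cells and lowers their hormone release. IFN-γ is a cytokine of T lymphocytes and natural killer cells. It binds a receptor whose JAK kinases phosphorylate STAT proteins, and STAT dimers then bind GAS elements in the promoters of target genes. Among those targets is *Irf1*, whose protein, like complexes that hold STAT2 and IRF9, binds elements built on repeats of GAAA. The GTPases, antigen presentation genes and antiviral genes reached through both routes are the usual readout of an interferon response.

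Because the genes that stood highest with IFN-γ are known to be reached through these elements, RefSeq promoter windows (GRCm38.p6, 250 bases before to 50 after a transcript start) were searched for TTCNNNGAA, the GAS form, and for GAAANNGAA, an IRF form, on both strands, where the latter reads TTCNNTTTC on the other strand. A GAS match and an IRF match can share bases. Short stretches of 7 promoters are shown 5′ to 3′ on the gene's strand, with matches in capitals, as examples of both forms in genes far higher with IFN-γ and, for *Sst*, in a gene near level. *Igtp* and *Irgm2* are neighbors whose 60-base stretches differ at 2 bases, and *Irf1* held a GAS match with no IRF match.
*Irf1*, chr11:53769904-53769952, plus strand: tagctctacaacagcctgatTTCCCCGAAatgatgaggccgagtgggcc
*Igtp*, chr11:58199491-58199550, plus strand: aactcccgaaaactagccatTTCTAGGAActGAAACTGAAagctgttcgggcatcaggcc
*Irgm2*, chr11:58214882-58214941, plus strand: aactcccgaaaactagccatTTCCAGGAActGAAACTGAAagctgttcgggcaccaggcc
*Gbp7*, chr3:142530210-142530312, plus strand: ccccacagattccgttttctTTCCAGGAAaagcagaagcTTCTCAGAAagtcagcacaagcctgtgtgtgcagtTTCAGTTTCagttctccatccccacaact
*Gbp3*, chr3:142559980-142560034, plus strand: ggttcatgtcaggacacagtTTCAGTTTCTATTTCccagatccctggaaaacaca
*Socs1*, chr16:10785585-10785639, minus strand: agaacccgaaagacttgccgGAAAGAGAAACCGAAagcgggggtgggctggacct
*Sst*, chr16:23890991-23891039, minus strand: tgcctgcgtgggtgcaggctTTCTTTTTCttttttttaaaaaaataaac

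Of all genes with a promoter window, 9.55% held the GAS form and 9.76% the IRF form, and of the 4919 with a window among the genes compared here, 7.77% and 8.97%. Of the genes at least 2-fold higher in the summed δ-cells with IFN-γ (the 227 of 6194 described further on), 175 had a window, of which 25 (14.3%) held the GAS form and 53 (30.3%) the IRF form. Of the 171 genes at least 2-fold lower, 128 had a window, of which 8 (6.25%) held the GAS form and 15 (11.7%) the IRF form. Both sets include genes whose difference was fixed by the level filter described further on, and shares without them were not taken. A match is a run of letters and does not show binding.

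Many of the cells chosen carried *Hhex* and *Ptprz1*, δ-cell markers that the rule did not use. *Hhex*, the transcription factor that maintains δ-cell identity, had a UMI in 44 of 59 untreated cells (74.6%, interval 61.6 to 85.0) and in 135 of 172 IFN-γ cells (78.5%, 71.6 to 84.4). In β-cells, chosen by a like hormone rule, it was seen in 6 of 1191 untreated cells (0.504%, at a median of 17077 UMIs per cell) and in 2 of 1308 IFN-γ cells (0.153%, at a median of 10948.5), and in 0 of 90 and 3 of 296 α-cells. *Ptprz1*, a receptor tyrosine phosphatase, had a UMI in 28 and 85 δ-cells, in 3 β-cells of each library and in 1 α-cell of each. *Rbp4*, a retinol carrier also listed as a δ-cell marker, had a UMI in every δ-cell, but also in 88 of 90 untreated and 293 of 296 IFN-γ α-cells, at 2703.4 and 1708.3 CPM (counts per 1000000 UMIs of the summed cells) against 4241.9 and 4207.9 in δ-cells, so it does not tell the 2 cell types apart. *Sst* itself, by which the cells were chosen, ran from 2.30% to 25.4% of a cell's UMIs in the untreated library and from 2.25% to 26.9% in the IFN-γ library. The highest *Sst* share of a cell left outside by this limit alone was 1.93% in the untreated library and 0.317% in the IFN-γ library.

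The untreated library was the deeper one per cell and the poorer one in δ-cells. Its δ-cells had a median of 8696 UMIs and 2974 genes, against 7167.5 UMIs and 2643 genes with IFN-γ, and they summed to 502367 UMIs against 1260256. δ-cells made up 3.88% (interval 2.97 to 4.98) of kept cells without treatment and 8.11% (6.98 to 9.35) with IFN-γ. The limit of 4000 genes removed 843 barcodes from the untreated library and 345 from the IFN-γ library, 18 and 16 of them δ-cells by hormone. No barcode was shared by the δ-cells of the 2 libraries, and 4 were shared by all their barcodes.

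RNA of endothelial, lymphoid and mesenchymal markers was close to absent from these δ-cells, while PP-, β-cell and ductal markers and the macrophage marker *C1qa* were present. The macrophage markers *Ptprc*, *Csf1r*, *Lyz2* and *Adgre1* had no UMI in either library, while the complement gene *C1qa* stood at 89.6 CPM without treatment and 62.7 with IFN-γ, which makes up most of the 93.6 and 66.7 summed over the macrophage list. Endothelial markers summed to 3.98 and 4.76 CPM over 6 genes, led by *Pecam1*, with *Cd34*, *Flt1* and *Kdr* at 0. T and NK cell markers summed to 0 and 0.793 over 4 genes, with *Trac* the 1 gene seen, and B cell markers to 0 and 0.793 over 2. Mesenchymal markers summed to 3.98 and 1.59 over 4 genes, from 2 UMIs in each library. Ductal markers summed to 322 and 248 over 5 genes, led by *Krt7*, which had a UMI in 76.3% of untreated and 54.7% of IFN-γ δ-cells, and acinar markers to 91.6 and 51.6 over 5, led by *Ctrb1*. α-cell markers summed to 498 and 351 CPM over 6 genes, led by *Gcg*, and β-cell markers to 37731 and 31256 over 8, of which *Iapp*, which δ-cells also express, gave 32377 and 29142.5 and *Ins2* 3953.3 and 1567.9. Insulin mRNA made up 0.531% of δ-cell UMIs in the untreated library and 0.209% in the IFN-γ library, within the limit that the rule sets. *Pyy*, a peptide of the PP family, made up 6.20% and 6.18%, and *Ppy* was over 1% of UMIs in 45 of 59 untreated and 124 of 172 IFN-γ cells. *Ppy* and *Pyy*, the PP-cell markers, summed to 88798 and 85233 CPM. What part ductal, acinar and macrophage RNA had in the results was not tested.

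With IFN-γ, genes known as interferon targets held most of the highest ratios in the δ-cells, and other genes differed in both directions. Summed levels were compared for the 6194 genes with a mean of at least 20 CPM over the 2 libraries. A summed count under 3 was set to 3 for ranking and counting, which is 5.97 CPM in the untreated and 2.38 in the IFN-γ library. Of these genes, 227 (3.66%) were at least 2-fold higher with IFN-γ and 171 (2.76%) at least 2-fold lower. A gene under 13.3 CPM in 1 library reached this mean only where the other library held at least 2-fold more, so the filter itself set the difference of 69 of the higher and 31 of the lower genes. Among the other 6094 genes, called free here, 158 (2.59%) were at least 2-fold higher and 140 (2.30%) at least 2-fold lower. Gene lists are counted and their medians taken over free members. A free gene under 20 CPM in 1 library still had its direction fixed by the filter, though not a 2-fold difference. Such genes were left in these counts and medians. Over all 6194 genes the median log2 ratio of IFN-γ over untreated was -0.04, with quartiles of -0.34 and 0.26. With the genes set by the filter included, the high side reached farther than the low side. Of the 6194 genes, 79 were at least 4-fold higher and 33 at least 10-fold higher, against 5 at least 4-fold lower. These were not counted over free genes alone. At 50 CPM or more, where counting error is smaller, 98 genes were at least 2-fold higher and 28 at least 2-fold lower of 3017. This cut sets differences in the same way at higher levels, and the genes it set were not taken out. With insulin under 1% in every δ-cell, 230 genes were at least 2-fold higher and 168 lower, and with each cell thinned to 4000 UMIs, 375 and 414. With *Ppy* under 1%, an alternative added after the data were seen that kept 48 IFN-γ and 14 untreated cells, they numbered 316 and 870.

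**Figure D1:**
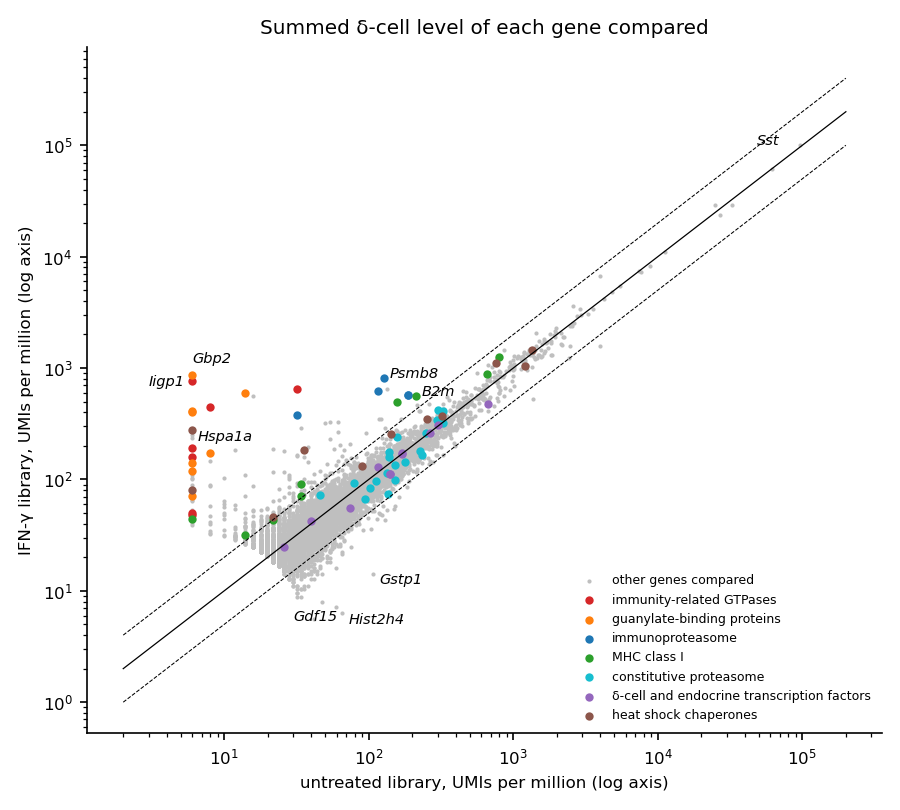
Summed δ-cell level of each of the 6194 genes compared, in CPM on log axes, untreated library across and IFN-γ library up, with gene lists in color, equality as a solid line and 2-fold as dashed lines; counts under 3 are drawn at 3. GTPases such as *Gbp2* and *Iigp1* stand far above the line, while the constitutive proteasome and the endocrine transcription factors lie along it.

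The 15 genes with the highest ratios included, in order, *Gbp2*, *Iigp1*, *Gbp3*, *Gbp4*, *Igtp*, *Hspa1a*, *Zbp1*, *Gbp7*, *Tap1*, *Cd274*, *Irgm2*, *Ifi47*, *Gbp6* and *Ifit3*. All of these but *Gbp7* were set by the filter, which fixes direction and not size, and the direction of *Gbp7* was fixed too. Among them, 9 encode interferon-inducible GTPases, and *Hspa1a*, a heat shock chaperone, is the 1 gene not usually placed among interferon targets. *Gbp2* had 3 UMIs in the untreated δ-cells and 1086 in the IFN-γ δ-cells, or 5.97 and 862 CPM, a ratio of 144 (interval 49.2 to 701). Its 3 untreated UMIs came from 1 cell. *Iigp1* had none and 959, which is at least 127-fold higher against a floor of 3 UMIs in the untreated sum. Other bounds for genes with no untreated UMI use the same floor, and the exact counting interval starts somewhat lower, at 103 for *Iigp1*.

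Among the transducers of the IFN-γ signal, *Ifngr1*, the kinases and *Stat3* lay within 2-fold, while *Stat2*, which was set by the filter, stood far higher. *Stat2*, whose protein serves the type I interferon complex, went from 2 UMIs to 139, a ratio of 27.7 (7.53 to 231). The filter fixed the direction of this ratio and not its size. *Stat3* (ratio 1.40, interval 1.09 to 1.79), *Jak1* (1.14, 0.824 to 1.60), *Jak2* (0.883, 0.456 to 1.80) and the ligand-binding chain *Ifngr1* (0.769, 0.389 to 1.59) had intervals that, but for *Stat3*, held 1. The second receptor chain, *Ifngr2*, was under the level compared at 19.9 and 8.73 CPM, from 10 and 11 UMIs (0.438, 0.169 to 1.15).

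The interferon regulatory factors split in their levels. *Irf1*, *Irf7* and *Irf9* were at least 2-fold higher, *Irf3* was at least 2-fold lower, and *Irf2* was neither. *Irf7* and *Irf9* without treatment and *Irf3* with IFN-γ were under 20 CPM, so the filter fixed their direction. *Irf1*, the transcription factor that carries the second wave of the response, stood at 49.8 CPM without treatment and 318 with IFN-γ (ratio 6.39, 4.27 to 10.0). *Irf7*, which drives type I interferon genes, stood at 13.9 and 109.5 (7.86, 3.71 to 19.9), and *Irf9*, the DNA-binding partner of STAT2, at 13.9 and 71.4 (5.13, 2.39 to 13.1). *Irf3*, the latent sensor-activated factor, stood at 35.8 and 13.5 (0.376, 0.182 to 0.774), from 18 and 17 UMIs. *Irf8*, better known from myeloid cells, had 0 and 20 UMIs, at least 2.66-fold higher, with *Irf4* and *Irf5* at 0 in both.

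Feedback inhibitors of the pathway were among the genes that differed. *Socs1*, which blocks JAK kinases, had 1 UMI without treatment and 113 with IFN-γ (ratio 45.0, 7.92 to 1794.7), and *Usp18*, which acts at the type I interferon receptor, had 3 and 92 (12.2, 4.05 to 60.4). Both were set by the filter, and of the 4 free inhibitors compared none was 2-fold higher or lower. *Socs3* (1.67, 0.957 to 3.09), *Ptpn2* (1.15, 0.674 to 2.06), *Pias1* (1.33, 0.828 to 2.23) and *Cish* (1.03, 0.514 to 2.20) had ratios within 2-fold, each with an interval that held 1. *Ptpn6*, a phosphatase just under the level compared, stood at 27.9 and 9.52 CPM, from 14 and 12 UMIs (0.342, 0.144 to 0.796).

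Immunity-related GTPases (IRGs), which attack the vacuoles of intracellular parasites, were close to absent from untreated δ-cells and abundant with IFN-γ. Of 12 listed, 7 were compared, of which 6 were set by the filter, and *Irgm1* was the 1 free member. The whole list summed to 41.8 CPM without treatment, of which *Irgm1* gave 31.8, and to 2432.0 with IFN-γ, where *Iigp1*, *Irgm1* and *Igtp* stood at 761, 652 and 448. *Irgm1*, a regulator of the other members, had 16 and 822 UMIs, a ratio of 20.5 (12.5 to 36.0). *Igtp* had 4 and 565 UMIs, a ratio of 56.3 (21.9 to 207), and was seen in 4 of 59 and 150 of 172 cells. *Irgm2* had 1 and 243 UMIs (96.9, 17.2 to 3841.5). *Irgm2* (chr11:58199618-58222782) and *Igtp* (chr11:58199556-58207591) overlap on the plus strand in GENCODE M21 (GRCm38), and *Tgtp1* and *Tgtp2* are near-identical, so counts within these pairs are uncertain.

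Guanylate-binding proteins (GBPs), larger GTPases that coat pathogens and their vacuoles, showed the same pattern. Of 10 measured, 8 were compared, of which 7 were set by the filter, and *Gbp7* was the 1 free member. Its untreated level, under 20 CPM, still fixed its direction. The GBPs summed to 33.8 CPM without treatment and 2800.2 with IFN-γ. *Gbp7* stood at 13.9 and 592 CPM (ratio 42.5, 20.5 to 106), *Gbp3* at 3.98 and 410 (103, 28.4 to 853) and *Gbp4* at 1.99 and 407 (204, 36.5 to 8092.6). *Gbp8* had 4 and 217 UMIs. *Gbp6*, *Gbp9* and *Gbp10* had no UMI in the untreated δ-cells and 176, 149 and 89 with IFN-γ, at least 23.4-, 19.8- and 11.8-fold higher against the floor (the interval of *Gbp6* starts at 18.8). *Gbp5*, under the level compared, had 0 and 36, and *Gbp2b* had none in either. The members are close paralogs, so reads may be divided between them.

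**Figure D2:**
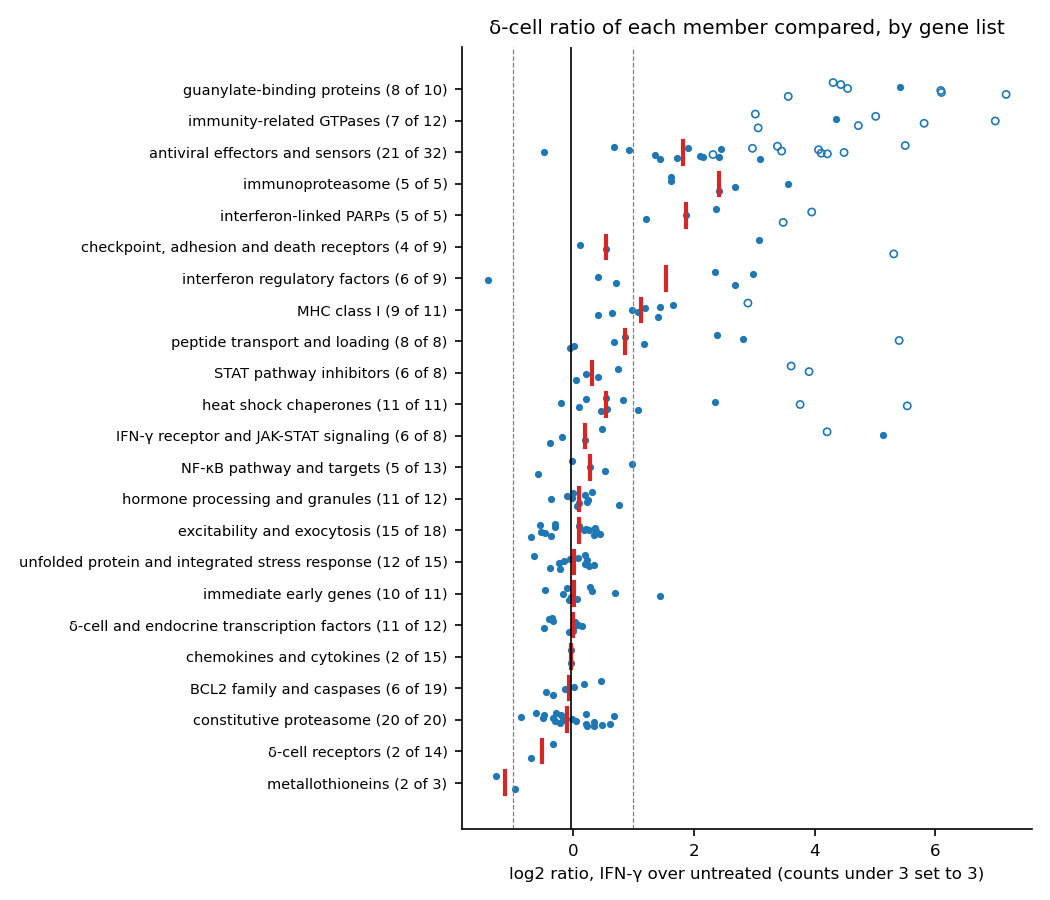
Log2 ratio of IFN-γ over untreated (horizontal axis) for each member compared of 23 gene lists, with the number compared of those measured in parentheses, members set by the filter as open points, medians of lists with at least 2 free members as red bars, the median of all genes compared as a black line and 2-fold as dashed lines. All but 1 GBP and 1 IRG are open points, the immunoproteasome list has a median of 2.42 with no open point, and the endocrine transcription factors, hormone processing and constitutive proteasome lists lie at the black line.

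UMIs of these GTPases were seen in 170 of 172 δ-cells of the IFN-γ library. The UMIs of the 22 measured IRGs and GBPs together ran, in untreated δ-cells, from 0 to 5.77 per 10000 UMIs of a cell, with a median of 0, an upper quartile of 1.25 and 33 of 59 cells without any. In IFN-γ δ-cells they ran from 0 to 179, with quartiles of 33.7 and 64.2 and a median of 49.0, and 2 of 172 cells had none. The median IFN-γ δ-cell had UMIs of 11 of the 22 genes. The libraries overlapped in 4 IFN-γ cells that lay at or below the highest untreated cell, with totals of 1681, 2145, 3720 and 7385 UMIs against the library's median of 7167.5. Of the IFN-γ δ-cells, 6 had only 1 to 3 such UMIs, a number that free RNA in the droplets can also give. Since β- and α-cells of this library held these genes too, neither gives that background. These 6 cells had totals of 506, 522, 783, 873, 3720 and 7385 UMIs. Those with 506 to 873 UMIs held 19.2 to 39.5 GTPase UMIs per 10000. What part depth or free RNA had in these counts was not tested. Summed over cells, the 22 genes stood at 5232.3 CPM in δ-cells, 4511.5 in β-cells and 5815.5 in α-cells of the IFN-γ library, while insulin mRNA, which the rule limits in δ-cells, made up 0.209% of δ-cell and 28.4% of β-cell UMIs there.

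**Figure D3:**
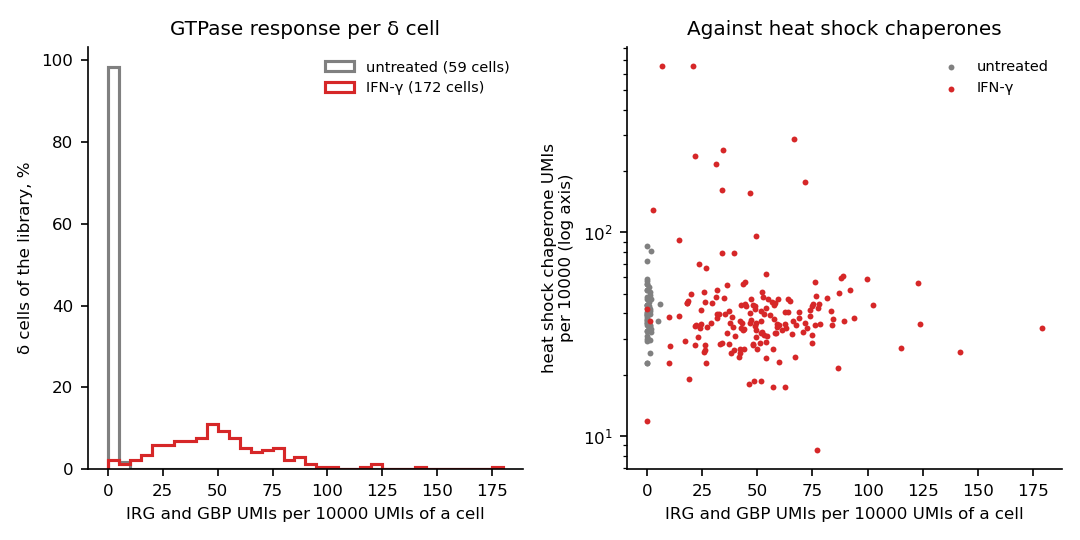
Left, percentage of δ-cells (vertical axis) by IRG and GBP UMIs per 10000 UMIs of a cell (horizontal axis), 59 untreated and 172 IFN-γ cells; right, the same measure against heat shock chaperone UMIs per 10000 on a log axis, 1 point per cell. Untreated cells end at 5.77 and IFN-γ cells center on 49.0, and the few cells with very high chaperone levels belong to the IFN-γ library.

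The high *Hspa1a* and *Hspa1b* levels with IFN-γ came from few cells. *Hspa1a* had 1 UMI in the untreated δ-cells and 349 in the IFN-γ δ-cells, but these came from 11 of 172 cells, and 2 cells gave 182 and 107 of them (82.8%). With those 2 cells left out, an alternative added after the data were seen, the ratio of *Hspa1a* was 8.08 in place of 46.4, both with the untreated count set to 3. *Hspa1b*, its near-identical neighbor, had 1 and 102 UMIs, 73 of them in its 2 highest cells. As counted, the ratio of *Hspa1a* was 139 (24.8 to 5510.5). Of 9 free chaperones, *Hspb1* and *Dnajb1* were at least 2-fold higher and none lower, with a median log2 ratio of 0.55. Over all 11 compared, 4 were at least 2-fold higher, against 2 with those 2 cells left out and 2 in cells with *Ppy* under 1%. Without those 2 cells *Hspa1a* itself still passed 2-fold, so *Hspb1* and *Dnajb1* did not both do so. *Hspb1* stood at 35.8 and 183 CPM while it had a UMI in 20.3% of untreated and 17.4% of IFN-γ cells, and *Dnajb1* stood at 21.9 and 46.0. The abundant *Hspa8* (ratio 0.873, 0.792 to 0.963) and *Hsp90ab1* (1.08, 0.984 to 1.18) were close to level.

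Within the IFN-γ library, the summed chaperone level ran from 8.55 to 653 UMIs per 10000 with a median of 36.9, against 22.9 to 85.9 with a median of 40.3 in untreated δ-cells. Over the 172 cells it had a Spearman value of -0.01 and a Pearson value of -0.17 with the GTPase measure, given as a description, since both are shares of the same cell's UMIs. The 2 cells highest in *Hspa1a* had 20.9 and 6.84 GTPase UMIs per 10000, below the lower quartile of 33.7. The other 4 cells with at least 3 *Hspa1a* UMIs had 31.4, 14.7, 33.9 and 2.69, while the cell with the third-highest summed chaperone level, 287, had 66.6, above the upper quartile of 64.2, with 1 *Hspa1a* UMI.

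Genes that make and load peptides for MHC class I were higher with IFN-γ at the inducible steps. All 5 subunits of the immunoproteasome list, the inducible form of the protease that cuts proteins into peptides, were compared and at least 2-fold higher, with a median log2 ratio of 2.42. The catalytic subunits *Psmb8*, *Psmb10* and *Psmb9* stood at 127, 115 and 31.8 CPM without treatment and at 819, 616 and 378 with IFN-γ, ratios of 6.43 (4.99 to 8.41), 5.33 (4.08 to 7.09) and 11.9 (7.23 to 20.9). The activator subunits *Psme1* and *Psme2* had ratios of 3.07 (2.47 to 3.85) and 3.06 (2.47 to 3.84). Of the 20 constitutive proteasome subunits, all compared, none was 2-fold higher or lower, and the median log2 ratio was -0.09. The constitutive catalytic subunits, which the inducible ones replace, were at ratios of 0.797 for *Psmb6* (0.634 to 1.01), 0.705 for *Psmb5* (0.560 to 0.892) and 0.551 for *Psmb7* (0.399 to 0.764).

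Peptide transport and loading genes divided along the same line. Of 7 free members, 3 were at least 2-fold higher and none lower, with a median log2 ratio of 0.85, and *Tap1* was set by the filter. The transporter chains *Tap1* and *Tap2* stood at 5.97 and 25.9 CPM without treatment and at 252 and 182 with IFN-γ, ratios of 42.3 (14.3 to 206) and 7.02 (4.03 to 13.4). *Tapbpl*, a peptide editor, had a ratio of 5.23 (3.24 to 8.97), the peptidase *Erap1* 2.26 (1.53 to 3.45), tapasin (*Tapbp*) 1.80 (1.47 to 2.23) and *Pdia3* 1.61 (1.41 to 1.84). The general chaperones *Calr* (0.970, 0.846 to 1.11) and *Canx* (1.01, 0.847 to 1.22) had intervals that held 1.

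MHC class I genes themselves were already abundant and differed less than the immunoproteasome list. Of 8 free members, 5 were at least 2-fold higher and none lower, with a median log2 ratio of 1.13. B2m, the invariant light chain, stood at 211 CPM without treatment and 561 with IFN-γ (ratio 2.66, 2.17 to 3.29), and *H2-T23* at 157 and 493 (3.13, 2.48 to 4.01). The classical heavy chains *H2-K1* and *H2-D1* stood at 802 and 663 without treatment and at 1250.5 and 883 with IFN-γ, ratios of 1.56 (1.40 to 1.74) and 1.33 (1.18 to 1.51). *Nlrc5*, the transactivator of class I genes, had 0 and 56 UMIs, at least 7.44-fold higher, and was set by the filter. The H2 genes are near relatives, and reads may be split between them.

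MHC class II genes, which belong to antigen-presenting cells, were seen at low counts. Of 9 measured, 1 was compared, *Cd74* (the invariant chain), with 9 UMIs without treatment and 45 with IFN-γ (ratio 1.99, 0.962 to 4.64). *Ciita*, the class II transactivator, had 0 and 32 UMIs, at least 4.25-fold higher, spread over 24 cells of the IFN-γ library. *H2-Aa* and *H2-Ab1* had 3 and 23 UMIs each (ratio 3.06, 0.923 to 15.9). The count of class II genes at least 2-fold higher was 1 in 6 alternatives, among them thinning to 4000 UMIs and no upper limit on genes. The macrophage and B cell markers stood at the levels given above, *C1qa* with 45 and 79 UMIs among them, and their part in these counts was not tested.

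Antiviral effectors and sensors were higher over most of the list. Of 32 measured, 21 were compared and 9 of these were set by the filter. Of the 12 free members, 9 were at least 2-fold higher and none lower, with a median log2 ratio of 1.81. *Zbp1*, a sensor of Z-form nucleic acid, stood at 5.97 and 271 CPM (ratio 45.3, 15.4 to 221). The Ifit genes, which bind foreign RNA, were at 7.96 and 148 for *Ifit1*, at 3.98 and 134 for *Ifit3* and at 1.99 and 103 for *Ifit2*. *Bst2*, which tethers virions, had a ratio of 8.51 (5.24 to 14.8), and *Oasl2* had 1 and 126 UMIs. *Zbp1*, these Ifit genes and *Oasl2* were among those set by the filter. The RNA sensors *Ifih1* and *Ddx58* had ratios of 4.98 (2.19 to 14.0) and 3.29 (1.58 to 7.93). The members compared that were not 2-fold higher were *Isg20* (1.90, 1.44 to 2.54), *Trim25* (1.59, 0.810 to 3.42) and *Ifitm2*, at 133 and 95.2 CPM (0.714, 0.525 to 0.978). *Mx1* had no UMI in either library.

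The interferon-linked PARPs, mono-ADP-ribosyl transferases and their partner *Dtx3l*, were at least 2-fold higher in all 3 free members, with a median log2 ratio of 1.87, and 2 more were set by the filter. *Parp14*, which was set by the filter, stood at 11.9 and 185 CPM (ratio 15.5, 7.01 to 42.6) and *Parp9* at 37.8 and 195 (5.16, 3.23 to 8.72). Among checkpoint, adhesion and death receptor genes, 1 of 3 free members, *Tnfsf10*, was at least 2-fold higher and none lower, with a median log2 ratio of 0.55. *Cd274*, which encodes the checkpoint ligand PD-L1 and was set by the filter, had 2 UMIs without treatment and 299 with IFN-γ (ratio 59.6, 16.4 to 494), in 2 of 59 and 123 of 172 cells. *Tnfsf10*, the death ligand TRAIL, stood at 21.9 and 186 CPM (8.48, 4.65 to 17.2). *Cd47*, the inhibitor of phagocytosis, stood at 295 and 430 (1.46, 1.22 to 1.76), *Icam1* had 3 and 37 UMIs, and *Cd40* had none in either library. *Serping1*, the inhibitor of complement C1, was the 1 gene compared of 10 for complement and acute phase, at 133 and 655 CPM (4.91, 3.82 to 6.39).

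Few chemokine and NF-κB genes reached the level compared, and none of these was 2-fold higher or lower with IFN-γ alone. Of 15 chemokines and cytokines measured, 2 were compared and both had ratios of 0.98. *Cxcl10*, a chemokine for activated T cells, had 0 and 46 UMIs, at least 6.11-fold higher, from 9 cells of the IFN-γ library. The count of chemokines at least 2-fold higher was 1 with no upper limit on genes or with hormones left out of the totals. *Cxcl9*, *Ccl20*, *Il6* and *Il15* had no UMI in either library. Of 13 NF-κB genes, 5 were compared and none was 2-fold higher or lower, with a median log2 ratio of 0.28. The count was 1 higher with a mitochondrial limit of 20%, median-of-ratios scaling, equal weight per cell or *Ppy* under 1%. *Sod2* (0.984, 0.757 to 1.29) and *Nfkbia* (1.22, 0.833 to 1.82) had intervals that held 1, *Nfkbiz* stood at 1.96 (1.10 to 3.78), and *Nos2*, the inducible nitric oxide synthase, had no UMI in either library.

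The lists hold 301 genes and were chosen with earlier results of these data known. Of the 227 higher genes, those set by the filter included, 68 were on a list. Among the others, chosen after their values were seen, were *Rtp4*, a receptor transporter with antiviral activity (53.7 and 325 CPM, ratio 6.05, 4.10 to 9.30), *Il18bp*, the decoy that binds IL-18 (61.7 and 326, 5.28, 3.67 to 7.88), and *Nampt*, an enzyme of NAD synthesis (31.8 and 161, 5.06, 3.04 to 9.02). *Mlkl*, the effector of necroptosis (5 and 71 UMIs, 5.66, 2.32 to 17.97), was also among them, but was set by the filter.

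No identity or secretory gene of the δ-cell that was compared passed 2-fold, though several had intervals off 1. Of 11 δ-cell and endocrine transcription factors compared, none was 2-fold higher or lower, and the median log2 ratio was -0.01. *Hhex* stood at 265 and 263 CPM (ratio 0.995, 0.811 to 1.23), *Pax6* at 301 and 309 (1.03, 0.849 to 1.25) and *Insm1* at 169 and 170 (1.004, 0.777 to 1.31). *Isl1*, a factor of all islet endocrine cells, stood at 665 and 478 (0.718, 0.627 to 0.824). Of 11 hormone processing and granule genes compared, none passed 2-fold (1 did in cells with *Ppy* under 1%), with a median log2 ratio of 0.10. The granin *Chgb* stood at 3957.3 and 6712.9 CPM (1.70, 1.62 to 1.78), *Pcsk1n*, an inhibitor of prohormone convertase, at 2139.9 and 1653.6 (0.773, 0.718 to 0.833), and *Chga* and *Pcsk2* had ratios of 1.05 and 0.982. *Sst*, which the rule used, made up 9.63% and 10.0% of δ-cell UMIs.

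Excitability and exocytosis genes also lay within 2-fold (15 compared, median log2 ratio 0.09), but 1 was at least 2-fold higher after thinning or with hormones left out of the totals, and 2 with *Ppy* under 1%. *Abcc8*, the regulatory subunit of the KATP channel, stood at 667 and 409 CPM (ratio 0.614, 0.534 to 0.707), and *Kcnj11*, its pore, at 61.7 and 44.4 (0.720, 0.456 to 1.16). *Kcnk16*, a background potassium channel, stood at 291 and 202 (0.693, 0.564 to 0.856). Of 14 δ-cell receptors, 2 reached the level compared, *Sstr3* (0.797, 0.433 to 1.52) and the ghrelin receptor *Ghsr* (0.613, 0.290 to 1.34), with a median log2 ratio of -0.52, and the others were too low to compare at this depth.

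Other stress gene lists lay near level, apart from the metallothioneins, whose difference rested in part on 1 cell. Of 12 unfolded protein and integrated stress response genes compared, none was 2-fold higher (1 was with *Ppy* under 1%) or lower, with a median log2 ratio of 0.02. *Hspa5* had a ratio of 0.969 (0.873 to 1.08), *Atf4* 0.765 (0.598 to 0.985) and *Ddit3* 1.20 (0.608 to 2.52). Of 10 immediate early genes compared, *Fosb* was at least 2-fold higher, at 19.9 and 54.0 CPM (2.71, 1.39 to 5.91), with a list median of 0.02, and with no upper limit on genes none was. Of 6 BCL2 family and caspase genes compared none passed 2-fold, with a median log2 ratio of -0.06. Of 2 metallothioneins compared, which bind zinc and copper, 1 was at least 2-fold lower, with a median log2 ratio of -1.13: *Mt1* stood at 394 and 202 CPM (0.511, 0.423 to 0.619) and *Mt2* at 67.7 and 27.8 (0.410, 0.249 to 0.678). Of the 34 untreated *Mt2* UMIs, 20 came from 1 cell, which also held 43 of 198 *Mt1* UMIs. With that cell left out, an alternative added after the data were seen, *Mt2* had a ratio of 0.976 (0.512 to 1.96) and *Mt1* of 0.640 (0.522 to 0.786).

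The lower genes came from fewer UMIs than the higher ones and formed no list fixed here: 2 of 171, *Irf3* and *Mt2*, were listed. Some of the lowest were also low with IL-1β alone, as given below. The 10 lowest ratios included those of *Hist2h4*, *Gdf15*, *Msrb2*, *Gstp1*, *Nr1d1*, *Bpgm*, *Eif4ebp1*, *Atg9a* and *Cc2d1a*, which had between 16 and 54 UMIs in the untreated δ-cells. All of these but *Gstp1* were under 13.3 CPM with IFN-γ, so the filter set their direction. *Gstp1*, a glutathione transferase, had 54 and 18 UMIs, or 107 and 14.3 CPM (ratio 0.133, 0.0733 to 0.230), and a UMI in 25 of 59 and 17 of 172 cells. The histone gene *Hist2h4* had 33 and 8 UMIs (0.0966, 0.0386 to 0.213). *Gdf15*, a stress-induced hormone, had 30 and 9 UMIs (0.120, 0.0499 to 0.258), up to 9 of them in 1 untreated cell. *Nr1d1*, the circadian repressor REV-ERBα, had 24 and 10 UMIs (0.166, 0.0709 to 0.360). *Dbp*, another circadian factor chosen after its value was seen, stood at 129 and 42.8 CPM (0.331, 0.226 to 0.483). *Gstp1* has a near-identical copy, so its counts are uncertain.

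Set beside the other 2 cytokine libraries, which share the untreated library as reference, the δ-cells showed different levels by gene. In the order untreated, IL-1β alone, IFN-γ alone and both cytokines, *Gbp2* stood at 5.97, 50.003, 862 and 2638.4 CPM in δ-cells, and *Irf1* at 49.8, 45.0, 318 and 858. *Cxcl10* stood at 0, 62.5, 36.5 and 7380.6, and *Nfkbia* at 73.7, 786, 89.7 and 1423.9. *Hhex* stood at 265, 125, 263 and 71.9. The δ-cells of the IL-1β and combined libraries numbered 155 and 97.

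**Figure D4:**
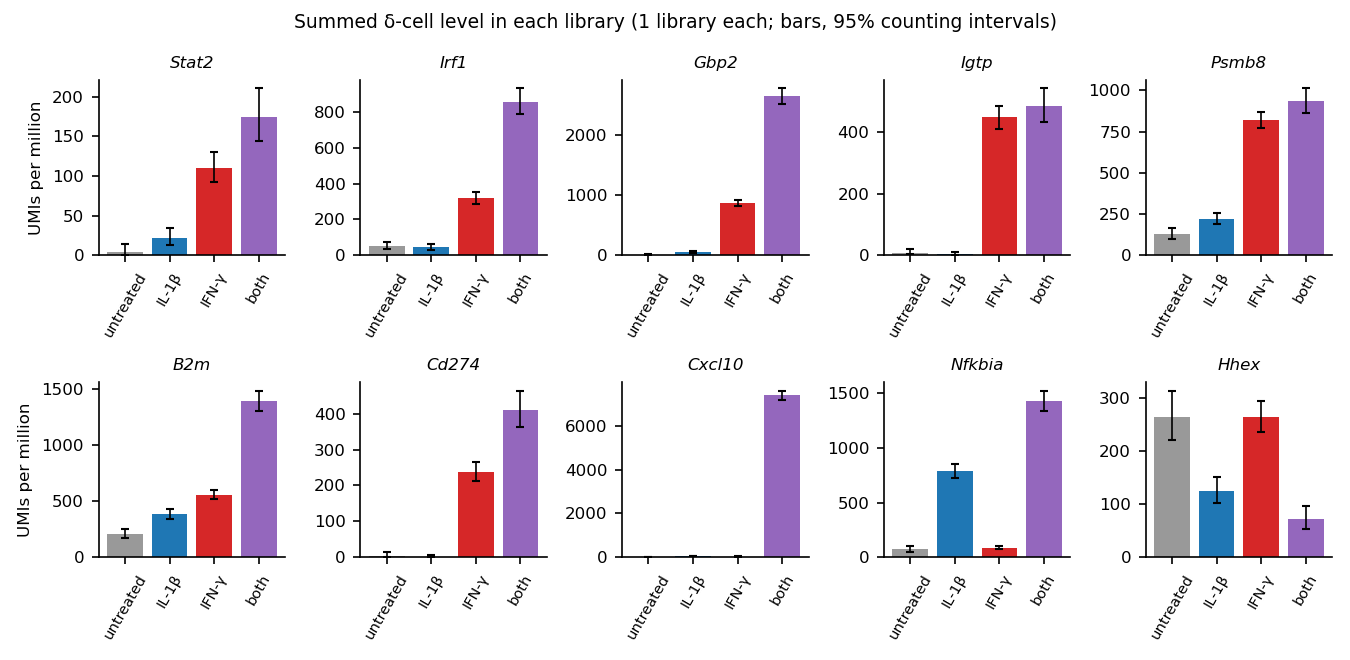
Summed δ-cell level in CPM (vertical axes, each starting at 0) of 10 genes, 1 library for each of the 4 conditions, with 95% counting intervals. *Igtp* and *Psmb8* are high in both libraries with IFN-γ, *Cxcl10* stands high in the combined library, and *Hhex* is level between untreated and IFN-γ.

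In the β-cells and α-cells of the same 2 libraries the 15 highest ratios all pointed the same way, and the 10 lowest did not. β-cells numbered 1191 untreated and 1308 with IFN-γ, and α-cells 90 and 296. All 15 of the highest were above 1 in both cell types, with an interval above 1 for 15 in β-cells and 14 in α-cells, the exception being *Hspa1a* at 1.09 (0.831 to 1.44). Of the 10 lowest, 4 were below 1 in β-cells and 8 in α-cells, and *Gdf15* stood at 1.46 (0.956 to 2.24) and *Nr1d1* at 1.37 (1.15 to 1.62) in β-cells. *Psmb8* had a ratio of 6.43 in δ-cells, 8.62 in β-cells and 8.95 in α-cells. *Ifit3* had a ratio of 33.7 in δ-cells (9.18 to 280), 39.4 in β-cells (29.3 to 54.3) and 2.39 in α-cells (1.42 to 4.25). *Gstp1* was low in all 3, with ratios of 0.133, 0.323 (0.267 to 0.388) and 0.278 (0.158 to 0.483). *Mt2* was at 2.11 in β-cells and 2.61 in α-cells, against 0.410 in δ-cells, or 0.976 without the 1 untreated cell named above. With 1 library a side, differences between cell types could not be tested beyond counting error.

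**Figure D5:**
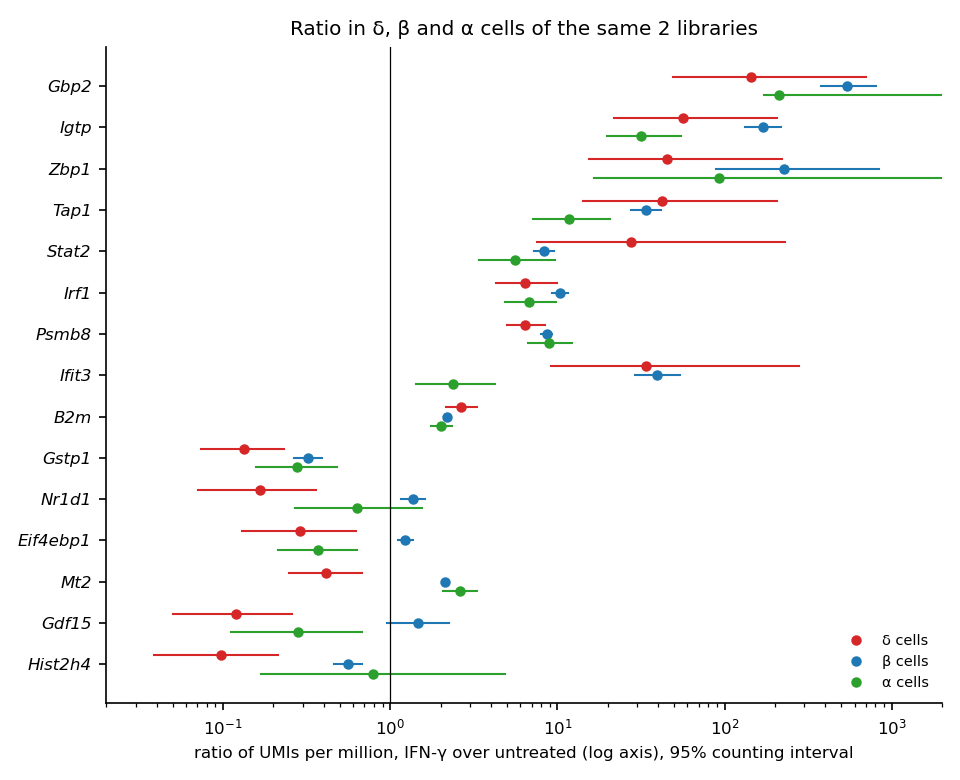
Ratio of CPM, IFN-γ over untreated, on a log axis for 15 genes in δ-, β- and α-cells of the same 2 libraries, with 95% counting intervals (where no UMI was seen without treatment, the point is the lower bound from 3 UMIs). The GTPases and *Stat2* lie right of 1 in all 3 cell types, *Gstp1* lies left of 1 in all 3, and *Mt2* and *Nr1d1* lie left of 1 in δ-cells and right of 1 in β-cells.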

How the data were processed

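Droplet single-cell libraries of untreated, IL-1β, IFN-γ and IL-1β + IFN-γ islets were read from the deposited matrices, which hold raw UMI counts made by the authors with Cell Ranger (version 3.0.0 in the file headers, build mm10 in the submitters' processing notes), without normalization. The labels name kit v2 and the study's methods v3. Symbols shared by several identifiers were kept apart.

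Python 3.11.15 was used, with pandas 2.3.3, scipy 1.17.1 and numpy 2.4.6. UMIs were summed over δ-cells per library and scaled to 1000000. Intervals at the 95% level were exact: Poisson for levels, Clopper-Pearson for shares and for ratios, given both counts. They cover counting error only. A count under 3 was set to 3 for ranking. The method was tested on simulated data. Doublets were kept in the main analysis, and Scrublet (scanpy 1.11.5, expected rate 0.05) was an alternative: it called 21 IFN-γ cells (0.990%) and 11 untreated cells (0.723%), of which 2 and 0 were δ-cells.

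Named genes were the 15 highest and 10 lowest ratios at a mean of at least 20 CPM, leaving out hormones, mitochondrial and numbered genes and those that changed direction after thinning to 4000 UMIs (55 untreated and 156 IFN-γ δ-cells were that deep), plus members of 25 gene lists and the marker lists. Members and lists were chosen with earlier results of these data known. The rules for β- and α-cells were set after the data were seen. Tests over cells, which treat cells as replicates, were not used. A few genes are not reported here, and the counts that rest on them are left out or given without their names.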

Additional observations from a re-analysis of the deposited data

Results flagged for a closer look

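*Nr1d1*, *Eif4ebp1* and *Mt2* were lower in δ-cells and higher in β-cells with IFN-γ, with counting intervals on opposite sides of 1. *Nr1d1* and *Eif4ebp1* were under 13.3 CPM in the IFN-γ δ-cells and were named for their low ratios, so the level filter and the choice fixed their δ-cell direction. *Nr1d1* had a ratio of 0.166 (0.0709 to 0.360) in δ-cells, from 24 and 10 UMIs, of 1.37 (1.15 to 1.62) in β-cells and of 0.630 (0.269 to 1.55) in α-cells. *Eif4ebp1*, an inhibitor of cap-dependent translation, had a ratio of 0.288 (0.130 to 0.622) in δ-cells, from 18 and 13 UMIs, of 1.23 (1.11 to 1.36) in β-cells and of 0.368 (0.212 to 0.637) in α-cells. With no upper limit on genes its δ-cell ratio was 0.576. *Mt2* had a ratio of 0.410 (0.249 to 0.678) in δ-cells, from 34 and 35 UMIs, 20 of the untreated ones from 1 cell, of 2.11 (2.03 to 2.19) in β-cells and of 2.61 (2.08 to 3.32) in α-cells. Without that cell its ratio in δ-cells was 0.976 (0.512 to 1.96). With 1 library a side these differences were not tested between conditions.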

How the results depend on the processing

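The 227 genes at least 2-fold higher and 171 at least 2-fold lower depended on how low levels were treated. They became 375 and 414 with each cell thinned to 4000 UMIs, 495 and 3832 with no filter on level, 98 and 28 at a mean of at least 50 CPM, 399 and 510 among genes with a UMI in at least 10% of cells, 613 and 730 at 1.5-fold, and 66 and 4 at a difference of 0.5 in ln(mean UMIs per 10000 + 1). The lower count was 107 with no upper limit on genes. In δ-cells with *Ppy* under 1%, an alternative added after the data were seen that kept 62 cells (14 untreated), it was 870. The median log2 ratio, -0.04, was -0.073 after thinning, -0.053 with hormones left out of the totals, 0.0014 with median-of-ratios scaling, -0.059 with equal weight per cell and -0.15 with *Ppy* under 1%. The median GTPase response per IFN-γ δ-cell, 49.0 per 10000, was 61.4 with hormones left out of the totals. In the alternatives that apply to these genes (11 for each), all 15 named higher genes stayed at least 2-fold higher, and 9 of the 10 named lower genes stayed at least 2-fold lower. Their size moved more: outside the counting interval for 13 of the 15 with *Ppy* under 1% and 6 after thinning, with *Gbp2* between 30.7 and 254 (144 as reported), *Gbp4* between 9.69 and 120 (68.2) and *Ifit3* between 4.96 and 39.5 (22.5), untreated counts under 3 being set to 3. *Eif4ebp1* reached 0.576. *Hspa1a* was 8.47 with no upper limit on genes and 8.08 without its 2 highest cells, against 46.4. Scaling by median-of-ratios and equal weight per cell do not alter the response per cell and were not run for it. No paired analysis was possible because each condition had 1 library. In the sum of the 59 untreated δ-cells, 20 CPM is near 10 UMIs.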
